A study of Mus musculus with 8 samples.

Results

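Neutrophils are short-lived white blood cells that enter injured tissue within hours, and 9 genes that mark them or draw them in are described here. They are S100a8, S100a9, Retnlg, Csf3r, Cxcr2 and Il1r2, which neutrophils express, and Cxcl1, Cxcl2 and Il1b, which encode chemoattractants and an inflammatory cytokine. The 9 genes were taken by symbol from the 25239 genes of a deposited count table, by a rule that lists their names and applies no threshold to measured values; the names were chosen with earlier results of these data known. The table holds RNA-seq of mouse kidney after ischemia-reperfusion (I/R), in which blood flow to the organ is stopped and then restored. Of its 8 libraries, 4 carry the genotype label WT and are called control 1 to control 4, and 4 are labelled as a myeloid-specific knockout of the transcription factor FoxO1 and are called knockout 1 to knockout 4. Both names stand for the labels throughout. The knockout design uses Lyz2-CreERT2 FoxO1flox/flox mice, in which a Cre recombinase expressed from the lysozyme gene Lyz2 is switched on by tamoxifen and cuts the floxed FoxO1 alleles. Lyz2 is active in monocytes, macrophages and neutrophils, so the design does not single out 1 myeloid cell type. Tamoxifen at 75 mg/kg on 5 days, at an age of 8 to 10 weeks, is listed with all 8 samples. Whether the WT animals received it or carried Cre is not given in the sources used here. In both groups the right kidney was removed and the left renal vessels were clamped for 35 minutes, so all 8 libraries come from injured kidney; uninjured kidney was not analysed here. The time from reflow to collection is not given in the sources used here. The labels do not state that each library is a separate animal, so p-values reflect only the spread among these 8 libraries, which may be technical; within each group, the counts of every pair of libraries differed by more than sampling noise (chi-square per degree of freedom 22.4 to 195.4).

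As background, S100a8 and S100a9 encode the paired calcium-binding proteins that fill the neutrophil cytosol, and Retnlg encodes a secreted resistin-like protein of neutrophils. Csf3r is the receptor for the growth factor G-CSF, which drives neutrophil production and release, and Cxcr2 is the chemokine receptor by which neutrophils follow Cxcl1, Cxcl2 and their relatives. Cxcl1 and Cxcl2 are made by injured epithelium, endothelium and macrophages, among others. Il1b encodes the cytokine interleukin-1 beta, and Il1r2 encodes a decoy receptor that binds interleukin-1 without signalling. In the kidney, neutrophils gather after reflow and are widely used as a sign of acute injury.

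Cxcl1 and Cxcl2 lie side by side on chromosome 5, in a cluster with the related genes Cxcl5, Ppbp, Pf4 and Cxcl3, and their promoters share letters. The longest run of bases found in all 3 of the Cxcl1, Cxcl2 and Cxcl3 promoters has 11 letters, GGGAATTTCCC, and holds the consensus of a kB site, the element bound by NF-kB. The 3 sequences are shown for that run. Retnlg is shown because it is the member with a FoxO consensus. The sequences are RefSeq's, of the build GRCm38.p6, and each gives the 250 bases before the annotated start, 5′ to 3′. Capitals mark GGGAATTTCCC in the first 3 and TGTTTAC, the FoxO consensus, in the last.
Cxcl1, chr5:90890995-90891244, plus strand: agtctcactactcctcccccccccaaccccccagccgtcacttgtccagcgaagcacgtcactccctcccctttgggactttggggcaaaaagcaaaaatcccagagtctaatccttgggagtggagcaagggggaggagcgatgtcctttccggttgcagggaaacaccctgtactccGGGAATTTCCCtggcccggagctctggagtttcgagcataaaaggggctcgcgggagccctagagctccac
Cxcl2, chr5:90903649-90903898, plus strand: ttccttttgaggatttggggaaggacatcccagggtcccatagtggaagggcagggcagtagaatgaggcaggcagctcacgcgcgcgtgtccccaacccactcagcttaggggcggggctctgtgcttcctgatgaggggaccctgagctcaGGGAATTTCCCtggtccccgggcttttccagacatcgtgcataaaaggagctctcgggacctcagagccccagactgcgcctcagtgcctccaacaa
Cxcl3, chr5:90785851-90786100, plus strand: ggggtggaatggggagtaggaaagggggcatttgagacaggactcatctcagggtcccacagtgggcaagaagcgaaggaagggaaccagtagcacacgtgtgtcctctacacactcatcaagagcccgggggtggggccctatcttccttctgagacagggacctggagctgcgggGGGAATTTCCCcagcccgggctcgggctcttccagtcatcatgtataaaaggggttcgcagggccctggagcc
Retnlg, chr16:48872358-48872607, plus strand: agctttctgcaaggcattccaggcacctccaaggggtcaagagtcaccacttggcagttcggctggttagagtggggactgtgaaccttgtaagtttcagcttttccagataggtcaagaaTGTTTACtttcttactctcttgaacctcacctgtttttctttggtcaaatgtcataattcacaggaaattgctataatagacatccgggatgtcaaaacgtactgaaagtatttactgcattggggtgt
Counted from the start, the shared run began at -71 in Cxcl1, -97 in Cxcl2 and -73 in Cxcl3, and the FoxO letters at -129 in Retnlg. On either strand, GGGAATTTCCC was found in 14 of 32851 RefSeq promoter windows of 300 bases (0.0426%; 250 bases before to 50 after the start) and in 2 of the 9 members, from which it was read. TGTTTAC was found in 3.65% of the windows and in 1 member. TTGCNNAA, a C/EBP consensus, was found in 10.8% of the windows and in 2 members, S100a9 and Retnlg. Of the 14 genes with the shared run, 7 were tested in the comparison of knockout with control. Cxcl1 and Cxcl3 passed the threshold, both lower in the labelled knockouts, and the other 5, Cxcl2 among them, did not pass. The run was read from Cxcl1, Cxcl2 and Cxcl3, so both calls are among its source genes. The tested genes outside that source, Hpn, Il16, Kremen2 and Zfp84, did not pass (edgeR adjusted p = 0.171 to 0.805). Over all tested genes, 12.7% were called. A match of letters is a description and not a measured binding site, and these data hold no measurement of binding.

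Library totals ran from 29044405 to 35530421 counts. Levels are given as CPM, counts scaled to library size with TMM factors, and 1 count stood for 0.0281 to 0.0360 CPM. Foxo1 itself stood at 33.0 to 34.5 CPM in the controls and at 39.3 to 42.9 CPM in the libraries labelled knockout, a difference of 0.29 on the log2 scale (SE 0.09, adjusted p = 0.0647, edgeR quasi-likelihood test). The level of the targeted gene in whole kidney therefore did not fall with the label, and it does not check the deletion in myeloid cells. All 12 kidney epithelial markers were measured, at a summed 4579 to 7897 CPM in controls and 12160 to 13780 CPM in knockouts. A pair of libraries stood apart. Control 1 was the highest of all 8 libraries for 8 of the 9 genes described here, and its Lyz2 count was 81, where controls 2 to 4 had 844 to 1610. The Lyz2 count of knockout 3 was 13, and its 3 companions had 858 to 1302. Where the call of a single gene named below ended without control 1, that value is given. Some values without control 1 and knockout 3 together are given as well. For lists, a count without control 1 is given where it was lower.

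All 9 genes passed the filter on low counts, and 7 of them were lower in the labelled knockouts at an adjusted p under 0.05 (edgeR quasi-likelihood test with Benjamini-Hochberg adjustment over 15000 genes). The background for this count, and for those of all lists below, is 6.28% of all tested genes called lower. A further 6.45% were called higher, and 0 of the 9. The 7 were all 6 neutrophil genes and Cxcl1, with fold changes between 4.77-fold and 12.7-fold lower. Cxcl2 and Il1b had lower means but did not pass. For 8 of the 9 genes, all except Il1b, every library labelled knockout lay below every control, against 10.6% of all tested genes. The median log2 fold change of the 9 was -2.77, and that of all 15000 genes was -0.01.

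The level of S100a8, in CPM and in the order of the library numbers, was 34.1, 11.5, 7.19 and 8.39 in the controls and 3.13, 1.56, 1.07 and 1.54 in the knockouts. The groups did not overlap, control 1 was about 3.78 times the mean of the other controls, and knockout 1 was the highest of its group. The means were 15.3 ± 12.7 and 1.83 ± 0.898 CPM (SD, n = 4 each), an 8.43-fold lower level, -3.08 on the log2 scale (SE 0.55, adjusted p = 0.00749 by edgeR). In bulk tissue, fewer neutrophils and less RNA per neutrophil cannot be told apart, here and in all results that follow. These data also do not show which cells the RNA came from. S100a9, the partner of S100a8 and its neighbour on chromosome 3, stood at 50.4, 20.2, 8.68 and 12.9 CPM in controls and at 6.62, 3.27, 1.72 and 2.10 CPM in knockouts. Its libraries fell into the same order as those of S100a8, from control 1 at the top to knockout 3 at the bottom, and the groups again did not overlap. The log2 fold change of S100a9 was -2.76 (SE 0.60, adjusted p = 0.0162 by edgeR), 6.77-fold lower. Retnlg, the resistin-like gene with the FoxO letters in its promoter, stood at 12.4, 3.72, 1.49 and 3.34 CPM in controls and at 0.936, 0.405, 0.339 and 0 CPM in knockouts. Knockout 4 had 0 counts, which allows up to 0.0889 CPM (3 counts in that library), and no knockout reached the lowest control. Retnlg had the largest fold change of the 9 genes, -3.66 on the log2 scale (SE 0.88, adjusted p = 0.0248 by edgeR, 12.7-fold lower), from means of 5.24 ± 4.87 and 0.420 ± 0.387 CPM (SD, n = 4 each).

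The 3 receptor genes were lower as well. Csf3r, the G-CSF receptor, stood at 53.5, 12.0, 6.94 and 8.36 CPM in controls and at 4.39, 3.16, 1.61 and 2.76 CPM in knockouts. Control 1 alone was above 50 CPM, and the lowest control was still 1.58 times the highest knockout. Csf3r was 6.81-fold lower (-2.77 on the log2 scale, SE 0.66, adjusted p = 0.0237 by edgeR). Cxcr2, the receptor for Cxcl1 and Cxcl2, stood at 11.1, 2.07, 1.97 and 2.01 CPM in controls and at 0.144, 0.203, 0.733 and 0.771 CPM in knockouts. Controls 2 to 4 lay close together, and knockouts 1 and 2, with 4 and 7 counts, were lower than knockouts 3 and 4, with 26 counts each. Cxcr2 was 9.10-fold lower (-3.19 on the log2 scale, SE 0.76, adjusted p = 0.0238 by edgeR). Il1r2, the interleukin-1 decoy receptor, stood at 9.67, 1.06, 1.07 and 1.17 CPM in controls and at 0.432, 0.261, 0.339 and 0.356 CPM in knockouts. Both groups were tight apart from control 1, which was 8.80 times the mean of the other controls, the widest such gap among the 9 genes. Il1r2 was 9.33-fold lower (-3.22 on the log2 scale, SE 0.81, adjusted p = 0.0289 by edgeR), on 9 to 12 counts per library labelled knockout.

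**Figure D1:**
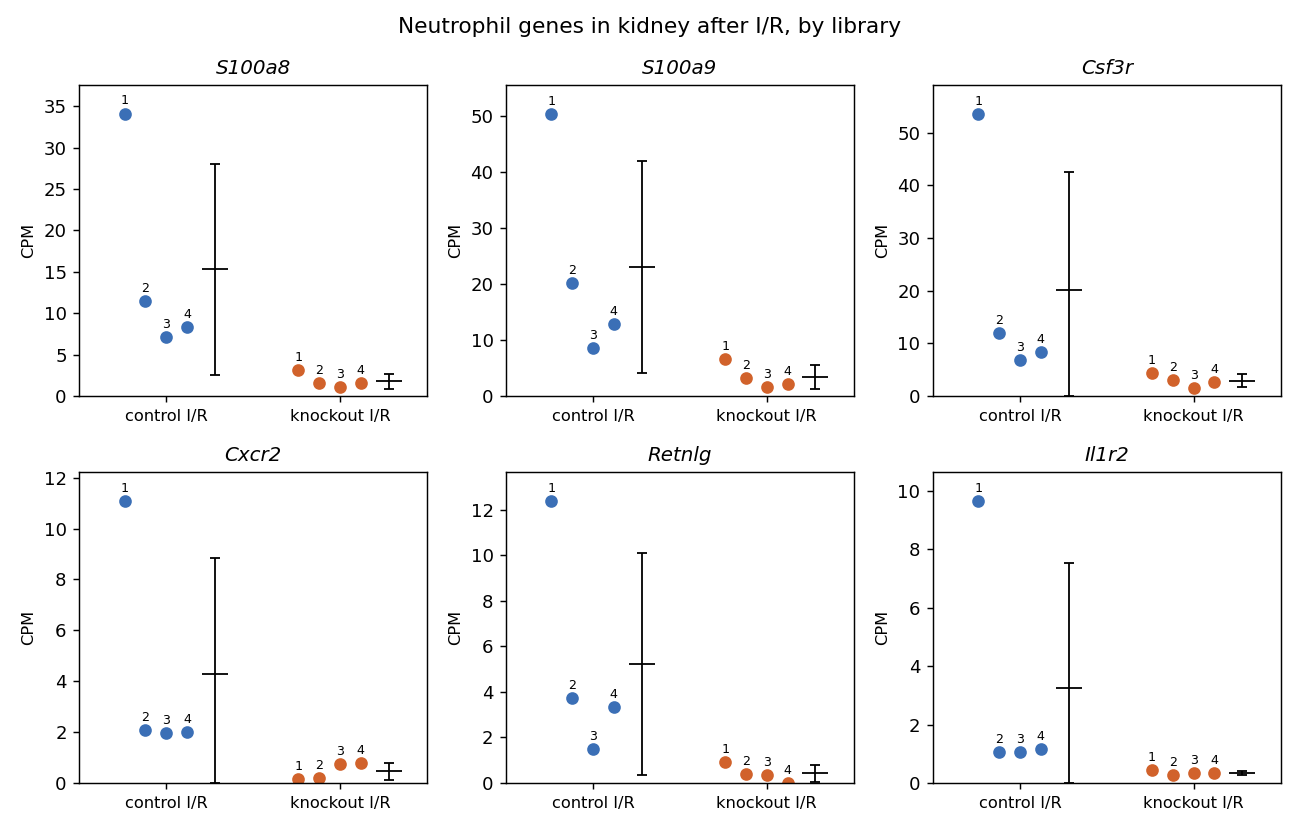
Levels of the 6 neutrophil genes in CPM (y axis, linear) in each control and each knockout library (x axis, numbered points), with the group mean as a bar and its SD as an error bar drawn no lower than 0. Control 1 is the highest point in all 6 panels, and every knockout point lies below every control point of the same gene.

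The differences were smaller, and in the same direction, without control 1. With control 1 left out, log2 fold changes were -2.31 for S100a8, -2.03 for S100a9, -2.78 for Retnlg, -1.61 for Csf3r, -2.10 for Cxcr2 and -1.66 for Il1r2, and all 6 remained below an edgeR adjusted p of 0.05, at 0.00375 to 0.0482. More calls were lost when a knockout library was left out. S100a8 held its call whichever library was left out, at edgeR adjusted p values of 0.00375 to 0.0315. Without knockout 2, 5 of the 6 did not pass, with S100a9 at 0.0515, Csf3r at 0.0657, Retnlg at 0.0708, Cxcr2 at 0.0707 and Il1r2 at 0.0845. Without knockout 4, S100a9 (0.0580), Csf3r (0.0744), Cxcr2 (0.0517) and Il1r2 (0.0826) did not pass. Without knockout 3, Csf3r (0.0674), Retnlg (0.0701) and Il1r2 (0.0760) did not pass, and without knockout 1, Cxcr2 (0.0518) and Il1r2 (0.0569) did not. Leaving out control 1 and knockout 3 together moved Retnlg to 0.107 and Il1r2 to 0.0634. Without knockout 1 the fold change of Retnlg was larger, at -4.37. The log2 fold changes of all 9 genes stayed below 0 under all 17 alternatives, and Cxcr2 and Il1r2 had a value in 16 of these, since DESeq2 gave them no adjusted p.

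Cxcl1, the attractant that acts through Cxcr2, was 4.77-fold lower in the labelled knockouts. It stood at 6.94, 8.54, 17.1 and 25.8 CPM in controls and at 3.17, 4.26, 1.81 and 2.99 CPM in knockouts. The groups did not overlap, and the order among the controls differed from that of the neutrophil genes: control 1 was the lowest control, at 0.405 of the mean of the other 3, and control 4 the highest. The means were 14.6 ± 8.70 and 3.06 ± 1.00 CPM (SD, n = 4 each), with a log2 fold change of -2.26 (SE 0.43, adjusted p = 0.00966 by edgeR). Without control 1 the value was -2.49 (adjusted p = 0.00364, edgeR), and Cxcl1 held its call under all 17 alternatives. Cxcl2, the neighbouring gene with the same kB letters, stood at 4.41, 2.10, 2.50 and 3.95 CPM in controls and at 2.02, 1.39, 0.903 and 0.207 CPM in knockouts. The lowest control, control 2, was only 1.04 times the highest knockout, knockout 1. The log2 fold change of Cxcl2 was -1.53 (SE 0.54) and did not pass (edgeR adjusted p = 0.0925). It passed in DESeq2 (adjusted p = 0.0266) and with limma-voom sample weights (adjusted p = 0.0207).

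Il1b, the cytokine gene, stood at 10.0, 3.41, 3.12 and 2.82 CPM in controls and at 2.99, 1.13, 1.81 and 1.78 CPM in knockouts. It was the 1 gene of the 9 whose groups overlapped: knockout 1 lay above control 4. The log2 fold change of Il1b was -1.33 (SE 0.47, adjusted p = 0.0873 by edgeR), and it passed in DESeq2 alone (adjusted p = 0.0244). Without control 1 it was -0.70 (edgeR adjusted p = 0.222).

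**Figure D2:**
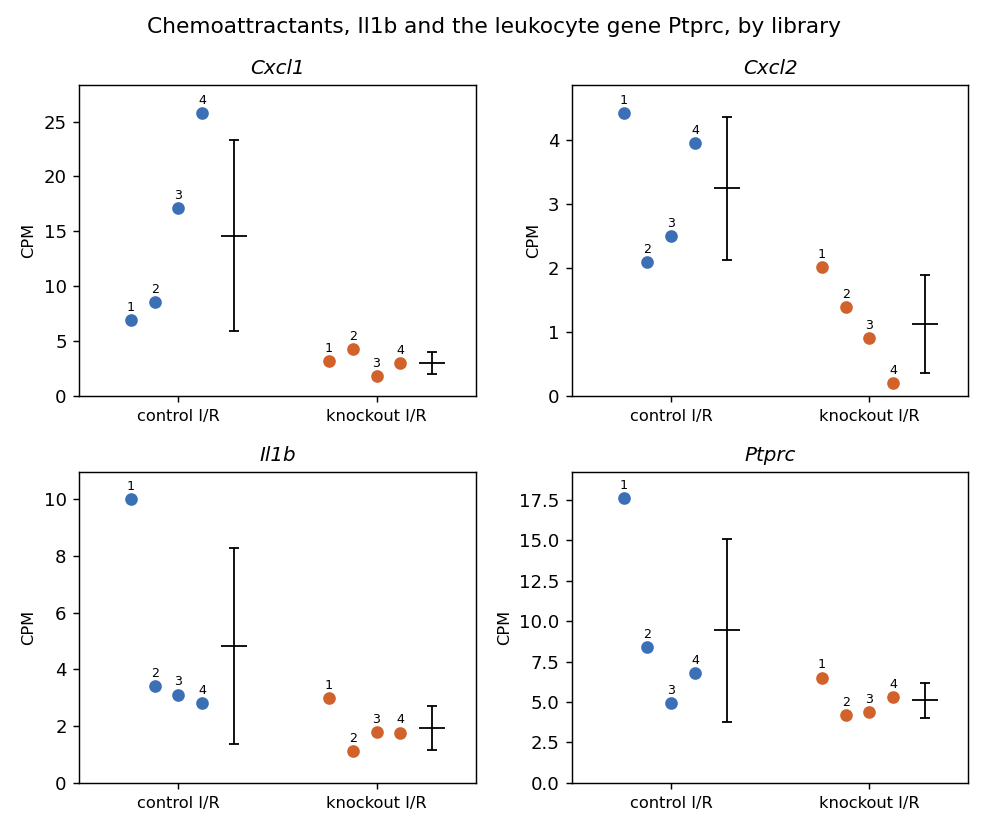
Levels of Cxcl1, Cxcl2, Il1b and the leukocyte gene Ptprc in CPM (y axis, linear) in each control and each knockout library (x axis, numbered points), with the group mean as a bar and its SD as an error bar. Control 1 is the highest control for Cxcl2, Il1b and Ptprc and the lowest for Cxcl1, and the groups overlap for Il1b and Ptprc.

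**Figure D3:**
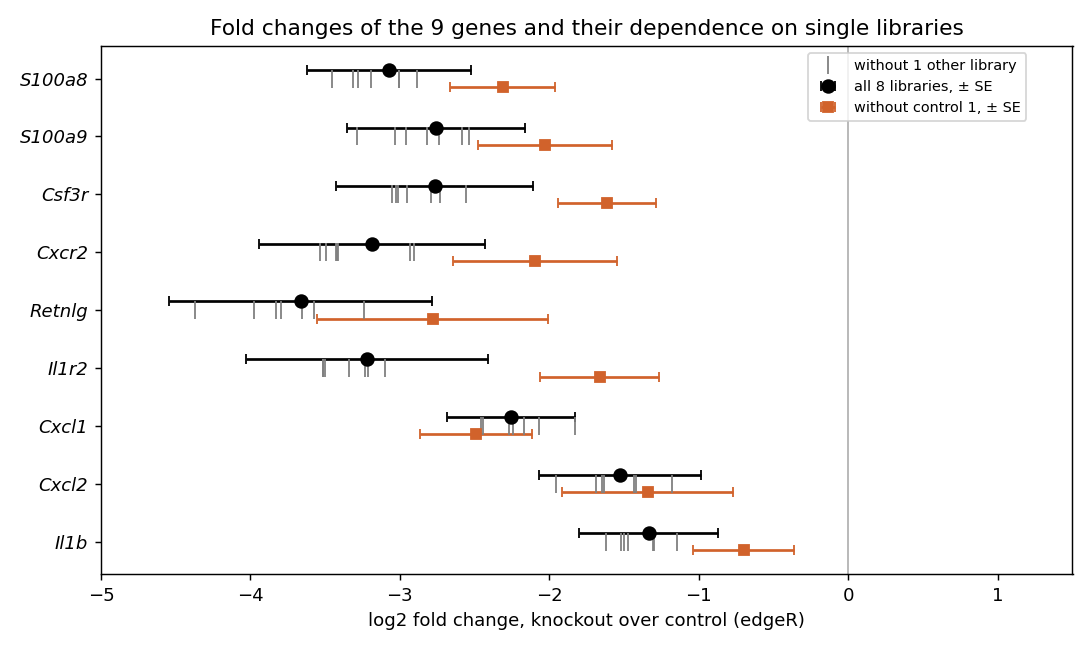
Log2 fold changes of the 9 genes, knockout over control (x axis), with standard errors as bars, from the edgeR fit with all 8 libraries (circles) and from the fit without control 1 (squares); grey ticks are the fits that leave out 1 other library. All values lie below 0, and those of the 6 neutrophil genes, Cxcl2 and Il1b move toward 0 without control 1 while that of Cxcl1 moves away from it, from -2.26 to -2.49.

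Levels of different genes were compared as CPM per kilobase of the deposited gene length. In controls the order of these levels was S100a9 (44.0), S100a8 (39.0), Cxcl1 (15.4), Retnlg (8.61), Csf3r (4.99), Il1b (3.59), Cxcl2 (2.99), Il1r2 (1.85) and Cxcr2 (1.41). Retnlg was above Csf3r in 4 of 4 controls. No other neighbouring pair in that order held in more than 3 of 4 controls, and Csf3r above Il1b and Il1r2 above Cxcr2 held in 2 of 4. In knockouts the order was S100a9 (6.55), S100a8 (4.66), Cxcl1 (3.22), Il1b (1.43), Cxcl2 (1.04), Csf3r (0.736), Retnlg (0.691), Il1r2 (0.198) and Cxcr2 (0.152). There, S100a9 over S100a8 and Cxcl1 over Il1b held in 4 of 4 libraries. Il1b and Cxcl2 thus ranked below Retnlg in the controls' mean levels and above it in the knockouts', also without control 1. Their place below Csf3r in controls rested on control 1: in controls 2 to 4 the mean CPM per kilobase was 4.69 for Retnlg, 2.63 for Cxcl2, 2.31 for Il1b and 2.24 for Csf3r.

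Ratios within a library do not depend on library scaling, and 6 were compared by two-sided exact permutation over the 70 assignments of 4 against 4, whose smallest p is 0.0286. None passed after adjustment over the 6. The log2 ratio of S100a8 to Ptprc, the gene of the leukocyte protein CD45, was 0.95, 0.45, 0.55 and 0.31 in controls 1 to 4 and -1.05, -1.41, -2.01 and -1.78 in knockouts 1 to 4. These values did not overlap, and control 1 was the highest control on this measure as well. The difference was -2.13 (exact permutation p = 0.0286, adjusted 0.0858), which is the smallest p the design allows. The log2 ratio of Il1b to its decoy receptor gene Il1r2 was 1.13 ± 0.738 in controls and 2.36 ± 0.285 in knockouts (SD, n = 4 each), higher in every knockout than in every control, with an exact permutation p = 0.0286 (adjusted 0.0858). The ratio of S100a8 to S100a9 differed by -0.25 (exact permutation p = 0.229, adjusted 0.344), so the pair moved by amounts that could not be told apart at this n. The ratio of Cxcl1 to Cxcl2 differed by -0.29 (exact permutation p = 0.714, adjusted 0.714), with knockout 4 far above the rest of its group. That of Cxcr2 to Csf3r differed by -0.73 (exact permutation p = 0.429, adjusted 0.515), and that of Cxcl2 to S100a8 by 1.04 (exact permutation p = 0.200, adjusted 0.344).

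Markers of other leukocytes were read beside the neutrophil genes. Ptprc stood at 17.6, 8.38, 4.91 and 6.77 CPM in controls and at 6.51, 4.17, 4.37 and 5.33 CPM in knockouts. The groups overlapped, and the log2 fold change of -0.89 (SE 0.37) did not pass (edgeR adjusted p = 0.138). Of 8 pan-leukocyte genes, 0 passed, with a median log2 fold change of -0.49 and a summed level of 127.1 to 302.1 CPM in controls and 127.8 to 217.1 CPM in knockouts. At an unadjusted p under 0.05, edgeR had 2 of these 8, and DESeq2 called 0. Of 18 macrophage and monocyte markers, 3 were lower, 0 higher and 15 did not pass, where 12.7% of all tested genes were called. Their summed levels were 378.5 to 524.5 CPM in controls and 287.4 to 468.4 CPM in knockouts. Adgre1, the F4/80 gene of resident macrophages, differed by 0.29 on the log2 scale (SE 0.23, adjusted p = 0.454 by edgeR). The 3 lower markers were Cd14 (-1.82), a co-receptor for bacterial lipid that epithelium can also express, Ccr2 (-2.39), the chemokine receptor of inflammatory monocytes, and Chil3 (-2.78), a chitinase-like gene of myeloid cells. Ccr2 and Chil3 were, like the neutrophil genes, highest in control 1, at 28.9 and 73.7 CPM. Without control 1, Ccr2 stood at -1.19 and Chil3 at -1.18, both still called, but neither passed without control 1 and knockout 3 (edgeR adjusted p = 0.0882 and 0.0729). Without control 1 the same list had 2 genes higher and 3 lower. With control 3 or a knockout library left out, 1 of the list was called in each of those 5 fits, and Ccr2 and Chil3 did not pass. Of 9 tested lymphocyte and NK markers, 0 passed in edgeR (1 at an unadjusted p under 0.05; 1 in DESeq2), and 1 passed without control 4. Control 1 was the highest of the 8 libraries in the summed level of the pan-leukocyte list and of the macrophage and monocyte list. What part these cells had in the results was not tested.

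Part of the other neutrophil genes fell as well. Of 32 listed, 18 passed the filter on low counts, and 8 were lower, 0 higher and 10 did not pass. The median log2 fold change of the 18 was -1.88, against -0.01 over all genes tested. This median leaves out the genes below the filter, and a gene can pass the filter through its control counts alone, which tilts it. Padi4, for one, had 14 to 73 counts in controls and 8 to 10 in knockouts. Mmp9, a neutrophil gelatinase, stood at 26.8, 5.41, 4.41 and 6.12 CPM in controls and at 1.73, 1.91, 1.07 and 1.81 CPM in knockouts. No knockout reached the lowest control, and the log2 fold change was -2.71 (SE 0.58, adjusted p = 0.0160 by edgeR). Without control 1 the log2 fold change of Mmp9 was -1.71. Lrg1, a secreted glycoprotein that is also made outside neutrophils, stood at 60.4, 117, 134 and 152 CPM in controls and at 20.8, 40.0, 26.9 and 12.4 CPM in knockouts. Here control 1 was the lowest control, as for Cxcl1, and the log2 fold change was -2.21 (SE 0.37, adjusted p = 0.00542 by edgeR). The other 6 lower genes were Trem1 (-2.67), an activating receptor, Asprv1 (-2.43), Clec4d (-2.36), a lectin receptor, Slfn4 (-2.32), Pglyrp1 (-1.95), a peptidoglycan-binding granule protein, and Padi4 (-1.92), the enzyme that citrullinates histones in neutrophils. Without control 1, 4 genes of the list were called: Mmp9, Slfn4, Lrg1 and Pglyrp1 passed, and Trem1 (edgeR adjusted p = 0.0511), Asprv1 (0.0698), Clec4d (0.0820) and Padi4 (0.133) did not. Without control 1 and knockout 3 together, Pglyrp1 (edgeR adjusted p = 0.102) did not pass either, while Trem1 did (0.0288). With 1 other library left out the list had 2 to 9 calls: 4 without knockout 2, 5 without knockout 3 and 2 without knockout 4. These counts include calls outside the 8 genes, since the filter on low counts was run again in each fit. Of the 8, Mmp9, Slfn4 and Lrg1 passed without knockout 2, these and Trem1 without knockout 3, and Lrg1 alone without knockout 4. Without knockout 4, Mmp9 (edgeR adjusted p = 0.0505), Slfn4 (0.0615) and Pglyrp1 (0.0704) did not pass; Pglyrp1 also missed without knockout 2 (0.0649) or knockout 3 (0.0636). Lrg1 passed whichever library was left out. Ltf, Hdc, G0s2 and Chil1 had log2 fold changes between -0.02 and 0.44, and none of these passed.

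Several genes of the granules that neutrophils load while still in the bone marrow were near the limit of detection. Elane and Ctsg, both primary granule proteases, had 0 counts in all 8 libraries, which allows up to 0.108 CPM in the shallowest library (3 counts). Mpo had at most 6 counts in any library, with 4 in all controls together and 12 in all knockouts. Camp had at most 2, with 3 in all controls and 7 in all knockouts. Exact zeros in the table need care, since the haemoglobin genes, abundant in blood, are also listed at 0 in all 8 libraries. Among the listed genes too low to be tested, some lay on 1 side only and others overlapped. The share of such genes among all untested genes was not computed. Cxcr1, the sister receptor of Cxcr2, had 2 to 13 counts in controls and 0 in all knockouts. Stfa2l1 had 4 to 65 counts in controls and 0 to 2 in knockouts, and Cd177 had 10 to 101 and 0 to 8. Ly6g, the gene of the surface antigen used to stain mouse neutrophils, had 0 to 18 counts in controls and 2 to 6 in knockouts and did not separate the groups. Neither did Ngp (0 to 20 counts in controls and 0 to 25 in knockouts) nor Prtn3 (2 to 35 and 0 to 39).

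Most tested genes of a list of Cxcl1 and Cxcl2 relatives, growth factors and cytokines were lower too. Csf3 and Csf2, the neutrophil growth factors of the list, were too low to be tested. Of 14 listed genes, 7 were tested, and 5 were lower, 0 higher and 2 did not pass, with a median log2 fold change of -2.63. That median too covers only genes past the filter, which a gene can pass through its control counts alone. Cxcl3, the ligand with the same kB letters as Cxcl1, stood at 6.29, 0.563, 1.18 and 0.324 CPM in controls and at 0.144, 0.174, 0.0564 and 0.119 CPM in knockouts. The groups did not overlap, but each knockout held few counts, and the log2 fold change of -4.06 (SE 0.98, adjusted p = 0.0250 by edgeR) was -2.47 without control 1 (adjusted p = 0.0345, edgeR) and -2.22 without control 1 and knockout 3, where Cxcl3 did not pass (0.0795). Cxcl5, another Cxcr2 ligand, stood at 1.46, 1.03, 1.15 and 1.78 CPM in controls and at 0.144, 0.174, 0.451 and 0 CPM in knockouts, with no high control 1 and a log2 fold change of -2.78 (SE 0.70, adjusted p = 0.0286 by edgeR). Pf4 (-1.94) and Ppbp (-3.00, edgeR adjusted p = 0.0622, not called) lie in the same cluster and are platelet chemokines. Whichever knockout library was left out, 3 of the list were called, and Cxcl3 did not pass (edgeR adjusted p = 0.0537 to 0.0763). Without knockout 2, only Lif and Csf1 of the 5 passed. The count of 3 in that fit includes a gene outside the 5, since the filter on low counts was run again. Cxcl5 did not pass without control 3, control 4, knockout 1 or knockout 2 (0.0596 to 0.0840), nor Pf4 without knockout 2, knockout 3 or knockout 4 (0.0567 to 0.0667). The log2 fold change of Pf4 was -1.33 without control 1, and without control 1 and knockout 3 it did not pass (edgeR adjusted p = 0.0518). Ppbp stood at 28.0 CPM in control 1 and at no more than 2.95 CPM in the other controls.

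Lif, a cytokine of the interleukin-6 family, stood at 23.7, 15.0, 22.7 and 22.1 CPM in controls and at 4.39, 3.59, 2.51 and 3.02 CPM in knockouts. The groups lay far apart, and its log2 fold change of -2.63 (SE 0.22) had the smallest adjusted p of the list (edgeR adjusted p = 0.000334). Csf1, the macrophage growth factor, was lower by a smaller amount, -0.90 on the log2 scale (SE 0.15, adjusted p = 0.00558 by edgeR). Tnf, the tumour necrosis factor gene, averaged 1.20 ± 0.523 CPM over the controls and 1.08 ± 0.347 CPM over the knockouts (SD, n = 4 each), and its direction turned with the libraries used. Csf3, which encodes G-CSF, the ligand of Csf3r, was too low to be tested, with 41, 8, 9 and 6 counts in controls and 1, 0, 0 and 0 in knockouts. Il6 had 125, 12, 22 and 9 counts in controls and 0, 4, 0 and 0 in knockouts. For Csf3 and Il6 no knockout reached the lowest control. Csf2, Il17a and Cxcl15, also of the list and too low to be tested, did not separate the groups, with at most 2 counts in any library. How often untested genes separate the groups over the whole table was not computed.

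The genes next to the members on the chromosome were read as well. Of the 6 tested genes of the chemokine cluster on chromosome 5, from Cxcl5 to Cxcl2, 4 were called lower, and Ppbp and Cxcl2 did not pass. Mthfd2l, the next gene after Cxcl2, differed by -0.10 on the log2 scale (SE 0.20, adjusted p = 0.783 by edgeR). On chromosome 1, Il1r2 is followed by Il1r1, which encodes the signalling receptor for interleukin-1. Il1r1 averaged 15.6 ± 1.18 CPM over the controls and 15.3 ± 1.38 CPM over the knockouts (SD, n = 4 each; -0.03 on the log2 scale, SE 0.13, adjusted p = 0.911 by edgeR), and its sign turned under 4 alternatives. The difference between the decoy and the signalling receptor gene was not tested directly.

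Of 22 other tested genes of the interleukin-1 system, 4 were lower, 0 higher and 18 did not pass, with a median log2 fold change of -0.58. Il1rn, the receptor antagonist, stood at 18.1, 8.23, 10.7 and 7.94 CPM in controls and at 5.40, 2.08, 1.44 and 2.99 CPM in knockouts. The groups did not overlap, and the log2 fold change was -1.92 (SE 0.42, adjusted p = 0.0167 by edgeR). The others were Il1f6 (-2.91), which encodes interleukin-36 alpha, Il33 (-0.89), an alarmin of the family, and Myd88 (-0.87), the adaptor of interleukin-1 and Toll-like receptors. Without knockout 2, 2 genes of the list were called, and Il1rn (edgeR adjusted p = 0.0548) and Il33 (0.0719) did not pass. Il1rn also missed without knockout 4 (0.0545), and Il33 without control 4 (0.0566), knockout 3 (0.0557) or control 1 and knockout 3 together (0.0810). Without control 1 the log2 fold change of Il1f6 was -2.20. Of 17 adhesion and transmigration genes, 2 were lower and 15 did not pass, about the share called among all tested genes (12.7%). Itgam, the CD11b integrin of neutrophils and macrophages, stood at 41.4, 12.8, 12.0 and 9.72 CPM in controls and at 6.12, 6.66, 7.48 and 5.16 CPM in knockouts. Control 1 was far above the rest, and the log2 fold change of -1.58 (SE 0.43, adjusted p = 0.0384 by edgeR) was -0.86 without it (adjusted p = 0.0205, edgeR). Itgam did not pass when any of the 4 knockout libraries was left out (0.0759 to 0.109 by edgeR), which left 1 call in the list. Icam1, the endothelial and epithelial partner of that integrin, was lower by a smaller amount (-0.75, SE 0.15, edgeR adjusted p = 0.0121), and in control 1 it was the lowest of the controls, at 52.6 CPM. Itgb2, which pairs with Itgam, had a log2 fold change of -0.52 and did not pass (edgeR adjusted p = 0.313).

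Among 12 tested genes of other attractants and their receptors, 1 was lower, 2 higher and 9 did not pass, where 12.7% of all tested genes were called. C5ar1, the complement C5a receptor, was lower (-1.08, SE 0.30, edgeR adjusted p = 0.0436), and without control 1 it did not pass (-0.66, adjusted p = 0.0502, edgeR), nor without control 1 and knockout 3 (0.103). Cxcl12, the chemokine that retains neutrophils in the bone marrow, moved the other way. It stood at 13.2, 59.4, 26.8 and 57.3 CPM in controls and at 184, 105, 94.4 and 104 CPM in knockouts, with no overlap and a log2 fold change of 1.64 (SE 0.43, adjusted p = 0.0332 by edgeR). Ackr3, a scavenger receptor for Cxcl12, was also higher (0.61, SE 0.17, edgeR adjusted p = 0.0403), but did not pass without control 1 (0.0601) or without control 1 and knockout 3 (0.136). The calls of this list depended on the libraries: 0 passed without knockout 2, knockout 3 or knockout 4, 1 passed without control 1, control 3 or knockout 1, and Cxcl12 ran from 1.37 to 1.74 in the 5 fits in which it did not pass.

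**Figure D4:**
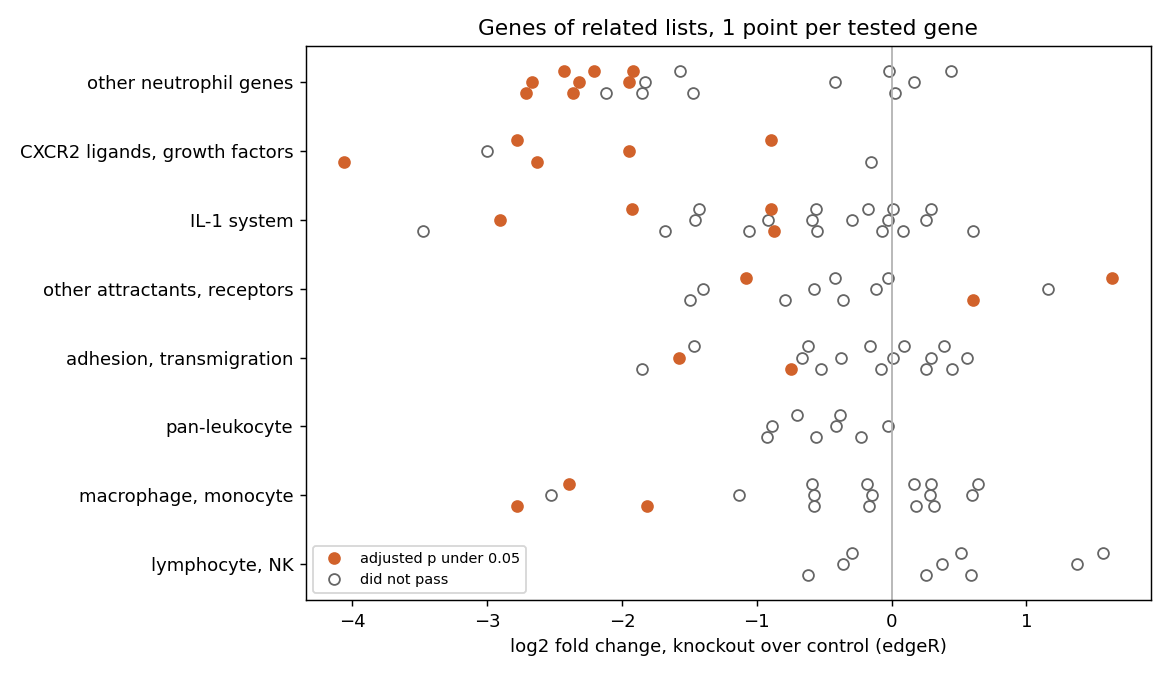
Log2 fold changes of the tested genes of 8 related lists, knockout over control (x axis, edgeR), with 1 point per gene and filled points for genes at an adjusted p under 0.05. The filled points of the other neutrophil genes, of the Cxcr2 ligands and growth factors and of the interleukin-1 system lie left of 0, and the pan-leukocyte and lymphocyte lists have no filled point.

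Genes of tubule injury and of the early stress response moved in the same direction as the members. Of 15 injured tubule genes, 12 were lower, 0 higher and 3 did not pass, with summed levels of 16070 to 30700 CPM in controls and 6407 to 7240 CPM in knockouts. Havcr1, the kidney injury molecule gene, differed by -2.45 on the log2 scale (SE 0.23, adjusted p = 0.00058 by edgeR). Of 16 immediate early and NF-kB feedback genes, 11 were lower, 0 higher and 5 did not pass. Without control 1, 10 of them were lower. Socs3, which is induced by G-CSF and interleukin-6 signalling, differed by -2.21 on the log2 scale (SE 0.28, adjusted p = 0.00184 by edgeR). Of 12 kidney epithelial markers, 6 were higher, 0 lower and 6 did not pass. Of these markers, 5 passed without control 1, and 3 passed without knockout 2 or knockout 4. What part the difference in tubule genes had in the levels of the members was not tested.

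The genes most like the members in pattern over the 8 libraries were found as those with the smallest root mean square difference of centred log2 CPM profiles, a description with no test. For the mean of the 6 neutrophil genes they were Mmp9 (0.403), Il1f6 (0.505), Areg (0.509), Sprr2f (0.517) and Clec4d (0.537), where the median over 14092 genes was 1.60. Mmp9 and Clec4d are genes of the neutrophil list, while Areg encodes an epidermal growth factor family ligand and Sprr2f a keratinocyte-type envelope protein. For Cxcl1 they were Smpdl3b (0.497), Bcl3 (0.503), Ppm1j (0.528), Cd14 (0.550) and Serpina10 (0.552), with a median of 1.26 over all genes. Bcl3 encodes a nuclear partner of NF-kB, and it stood at 76.3, 85.0, 102 and 121 CPM in controls and at 34.7, 25.4, 24.5 and 30.3 CPM in knockouts, with control 1 lowest and control 4 highest among the controls, as for Cxcl1. For Cxcl2 they were Sirpb1a (0.569), Morrbid (0.591), Rasl10a (0.597), Pnp2 (0.613) and Serp2 (0.615). For Il1b the likeness was closest, with Ncf1 (0.246), an oxidase subunit of phagocytes, Cd300ld (0.251), Cd44 (0.255), Gch1 (0.285) and Tlr13 (0.288), where the median was 0.890. Without control 1, 3 of these 20 genes were still among the nearest, and with 1 other library left out, which was tried after seeing the data, 8 to 13 were, so the choice depended on single libraries.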

How the data were processed

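RNA-seq was made from collagenase-digested kidney, from 1.3 µg of total RNA per library with a kit that does not mark strand, per the labels' protocols; sense and antisense reads therefore cannot be separated. The authors deposited 1 table of raw counts per gene with a gene length column. Tools listed in the submitters' processing notes are HISAT2 2.2.1, Salmon 1.10.2, FastQC and Trim Galore 0.6.2, with build mm39. Which tool counted, and with which annotation, is not stated there. Among counts of 1 to 20, 68.7% to 70.9% per library were even, against 49.5% to 50.4% above 100, so a count may stand for less than 1 fragment. Genes were taken by symbol, since 13 of 18423 identifiers (0.0706%) matched the symbol of their line. No coordinate comes from the table; promoters are RefSeq's, of GRCm38.p6.

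Counts were fitted with edgeR 4.0.16 under R 4.3.3 (genes kept by filterByExpr at minimum count 10, TMM, quasi-likelihood test of knockout against control, no covariate), with Benjamini-Hochberg adjustment over 15000 genes and a threshold of 0.05. Of these, 1909 were called (12.7%; 6.28% lower, 6.45% higher). Standard errors were derived from the F statistic. Log2 CPM used a prior count of 2, and log2 ratios a pseudocount of 0.5 counts. Depth limits cover counting error only. Alternatives were other scalings and filters, DESeq2 1.42.0, limma 3.58.1 with sample weights, a replicate block, counts divided by 2, and leaving out libraries. The filter on low counts was run again in each edgeR fit, so a list could gain genes not tested in the main fit. The fit was checked on simulated counts.

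The members, the 15 gene lists and the motifs were chosen with earlier results of these data known, so no p-value was computed over a list. The rule for named genes took the 9 members, any gene of the neutrophil and Cxcr2 ligand lists, up to 5 called genes of each other list by smallest p, 11 genes always (Ptprc, Lyz2, Adgre1, Itgam, Itgb2, C5ar1, Il1rn, Il1r1, Icam1, Sele, Selp) and the 5 genes nearest in pattern to each of 4 profiles. Foxo1, Mthfd2l and the kB-promoter genes were named outside it.

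Lists named in the rule but not described in the report gave these counts. Of 10 endothelial markers, 2 were higher and 8 did not pass. Without control 1, 1 of them was higher. Of 10 fibroblast and mural markers, 0 passed in edgeR (2 at an unadjusted p under 0.05; 1 in DESeq2). Of mast cell, basophil and eosinophil markers 1 was tested, Kit, which was higher. Of 4 tested erythroid and platelet markers, 1 was lower, Pf4. Selp did not pass (log2 fold change -1.46, edgeR adjusted p = 0.232), and Sele was too low to be tested.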

Additional observations from a re-analysis of the deposited data

Results flagged for a closer look

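Each group of 4 libraries was searched, for the CPM of 86 named genes (172 groups) and for 6 log2 ratios between genes (12 groups), for a highest or lowest library whose gap to the next exceeded 0.829 of the group's whole range. Of these 184 groups, 29 had such a library. Chance marks about 1 in 20 groups of independent, normally distributed values. The named genes are not independent, and some were named for likeness to the members over these libraries, so the shares cannot be compared. In 22 of the 29 it was control 1 at the top. Among the members, 5 of 18 groups were marked, all for a high control 1: S100a8 at 34.1 CPM, Cxcr2 at 11.1 CPM, Csf3r at 53.5 CPM, Il1r2 at 9.67 CPM and Il1b at 10.0 CPM. S100a9, Retnlg, Cxcl1 and Cxcl2 were not marked.

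Control 1 also stood far above the other controls for the neutrophil genes Mmp8 (6.13 CPM), Mmp9 (26.8 CPM), Fpr1 (2.05 CPM), Clec4d (13.8 CPM), Clec4e (5.03 CPM), Trem1 (7.36 CPM), Asprv1 (4.86 CPM) and Chil1 (2.53 CPM), for the chemokines Cxcl3 (6.29 CPM) and Ppbp (28.0 CPM), and for the integrin gene Itgam (41.4 CPM). The monocyte genes Ccr2 (28.9 CPM) and Chil3 (73.7 CPM) were marked in control 1, as were Areg (2.56 CPM), Cd300ld (8.85 CPM), Cd44 (63.3 CPM) and Tlr13 (10.7 CPM).

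Knockout 1 stood above the other knockouts for Padi4 (0.360 CPM), Cxcl12 (184 CPM), Anxa2 (287 CPM), Areg (0.432 CPM) and Cd44 (12.9 CPM), and knockout 3 for Trem1 (0.762 CPM). Control 3 was the low library for Kdr, at 15.9 CPM.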

How the results depend on the processing

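S100a8 and Cxcl1 were called under all 17 alternatives. Of the 9 members, 7 were called under other scalings and filters, in DESeq2 (which gave Cxcr2 and Il1r2 no adjusted p) and with counts divided by 2, 8 with sample weights, 5 without control 1 and knockout 3, and 2 to 7 with 1 library left out (2 without knockout 2, 3 without knockout 4, 4 without knockout 3); the cause was not tested. The 7 called in DESeq2 were another set, with Cxcl2 and Il1b in place of Cxcr2 and Il1r2. Over all genes, 1909 calls became 3009 in DESeq2, 1045 without control 1 and knockout 3, and 907 to 1984 with 1 library left out. With the replicate number as a block, 865 genes and 5 members were called, with Cxcr2 (adjusted p = 0.0919, edgeR) and Il1r2 (0.0564) no longer past the threshold. Libraries of the same number shared only that number: their deviations from the group means correlated at -0.20, 0.04, 0.15 and -0.16. In the block, the log2 ratios of Il1b to Il1r2 (1.23) and of S100a8 to Ptprc (-2.13) had the smallest p that sign flips of 4 pairs can give, 0.125 (exact). With 1 library left out, the ratio of Il1b to Il1r2 ran from 0.87 to 1.41, with an exact permutation p of 0.0571 without knockout 1 or knockout 3, and that of Cxcl1 to Cxcl2 from -0.955 to 0.082, above 0 without knockout 1. Log2 fold changes of genes that were not called turned sign as follows, and the cause was not tested. With 1 library left out, Lyz2 ran from -0.69 to 0.26 (0.23 without knockout 3), Il1r1 from -0.083 to 0.021, Ltf from -0.20 to 1.08, Mmp8 from -2.37 to 0.48, Hdc from -0.14 to 0.18, G0s2 from -0.23 to 0.17, Chil1 from -0.81 to 1.14 and Tnf from -0.40 to 0.11. With sample weights, Il1r1 was 0.04, Mmp8 1.17 and Chil1 -0.26. In the block, Hdc was -0.048, G0s2 0.005 and Chil1 -0.017. Without control 1 and knockout 3, Mmp8 was 0.73, Hdc -0.11 and Tnf 0.33. Depth limits the low genes most: a count of 0 allows up to 0.0842 to 0.108 CPM per library, and Cxcr2, Il1r2, Retnlg and Cxcl3 rested on few counts per knockout library.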
